A study of Mus musculus with 14 samples.

Results

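The genes described here are 10 genes of retinoic acid signalling and entry into meiosis: Stra8, Rara, Rarg, Rxra, Cyp26a1, Cyp26b1, Aldh1a1, Aldh1a2, Meioc and Ythdc2. They were taken by gene symbol from the count tables of both germ cell stages, which list 32667 genes for spermatogonia and 36888 for spermatocytes, with 31111 in both. All 10 were present in both tables and all 10 passed the filter on low counts in every comparison.

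Retinoic acid is made from vitamin A by retinaldehyde dehydrogenases, is broken down by enzymes of the CYP26 family, and acts through pairs of a retinoic acid receptor (RAR) and a retinoid X receptor (RXR) that sit on DNA. In the postnatal testis it triggers the differentiation of spermatogonia and, through the induction of STRA8, the start of meiosis. MEIOC and the RNA helicase YTHDC2 act together on RNA to let germ cells move from the mitotic programme into meiotic prophase.

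The study sequenced polyadenylated RNA from sorted mouse testis germ cells of Dnmt3CKO/KO animals (KO), which carry a constitutive knockout of a DNA methyltransferase that methylates the promoters of young retrotransposons, and of wild type animals (WT), all bred onto C57Bl6/J. Spermatogonia (Spg) came from juveniles at the end of the second postnatal week, sorted as live cells with Ep-CAM and without beta-2-microglobulin on their surface (3 KO and 3 WT libraries). Spermatocytes (Spc) came from mice older than about the third postnatal week, sorted by Hoechst staining for DNA content and exclusion of propidium iodide (4 KO and 4 WT libraries). Stage, age and sorting protocol go together and cannot be told apart, and a WT sort by DNA content can also hold germ cells later than those found in KO. Littermates were collected, but whether each library is 1 animal is not stated in the sources used here, so p-values measure the spread between these libraries.

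Total counts per library ran from 40555726 to 53323651. Values are CPM, counts relative to the library total, scaled with TMM factors over all 14 libraries, and means are given with the SD. Fold changes come from edgeR's quasi-likelihood test, are two-sided, and are on the log2 scale, and the threshold for a call was 0.01 on p adjusted by Benjamini-Hochberg across the tested genes and transposon subfamilies. Members other than Cyp26a1 had 65 to 54758 counts per library, for which the 95% Poisson interval reached at most 27.5% above the count, whereas Cyp26a1 had 2 to 337 counts. These intervals cover counting error only. The targeted gene did not check the genotype labels: Dnmt3c had 52 to 116 counts in KO and 11 to 89 in WT, with log2 fold changes of 0.10 in Spg and 0.77 in Spc, neither called. Spc replicates 1 and 4 were much alike within each genotype (chi-square per degree of freedom 11.6 in KO and 14.9 in WT, against 58.2 to 286 in all other pairs) but differed by more than sampling noise, and were kept as separate libraries. The study's captions name fewer biological replicates of Spc than there are libraries, so replicates 1 and 4 may come from the same animals or cell pools, which the sources used here do not state. With these replicates summed, the members called in KO against WT Spc went from 8 to 5, and the share of all genes and transposon subfamilies called from 57.4% to 38.2%.

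The label of the KO spermatocytes was set against 8 markers of pachytene spermatocytes. Their summed level was 9185 to 16880 CPM in WT Spc and 267 to 521 CPM in KO Spc. The KO Spc range met that of WT Spg (312 to 1614 CPM, replicate 2 highest) and lay above that of KO Spg (203 to 230 CPM). Of the 8 markers, 7 or 8 were above 3 counts in each KO Spc library. The summed level of 8 spermatid markers was 69.1 to 1512 CPM in WT Spc and 2.90 to 11.3 CPM in KO Spc. KO Spc therefore stands below for the libraries labelled so, which carry little RNA of pachytene markers. In bulk samples, fewer cells of a type and less RNA per cell cannot be told apart.

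Promoters are shown for a pair of members for which regulation by RAR and RXR is textbook knowledge, Stra8 and Cyp26a1. Printed are the 250 bases before the RefSeq start (GRCm38.p6, plus strand, 5′ to 3′), taken from RefSeq, in which 9 of the 10 members were matched with 15 promoters. For Stra8 (chr6:34920698-34920947) capitals mark the receptor half-site AGGTCA, and for Cyp26a1 (chr19:37697558-37697807) they mark a direct repeat of the half-site AGTTCA with 5 bases between, which lies on the minus strand and so appears as its reverse complement.
Stra8: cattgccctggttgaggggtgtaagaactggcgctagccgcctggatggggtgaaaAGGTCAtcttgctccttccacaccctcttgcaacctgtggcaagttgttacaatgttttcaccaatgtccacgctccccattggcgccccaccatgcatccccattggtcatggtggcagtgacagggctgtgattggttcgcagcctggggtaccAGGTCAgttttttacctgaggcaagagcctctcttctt
Cyp26a1: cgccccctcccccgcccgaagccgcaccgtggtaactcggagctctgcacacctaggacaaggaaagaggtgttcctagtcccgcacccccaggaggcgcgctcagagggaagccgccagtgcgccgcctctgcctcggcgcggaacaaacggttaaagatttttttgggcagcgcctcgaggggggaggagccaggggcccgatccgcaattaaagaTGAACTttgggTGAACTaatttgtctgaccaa

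The Stra8 window held AGGTCA at 2 places, 194 to 189 and 38 to 33 bases before the start. The Cyp26a1 repeat lay 32 to 16 bases before the start. Both strands of 32851 promoters of the same length were searched, and 14% held AGGTCA, 38.6% held at least 1 of 4 half-sites (AGGTCA, the variant AGTTCA, the variant GGGTCA or the variant GGTTCA), and 0.0883% (29 promoters) held a direct repeat of these half-sites with 5 bases between. Cyp26a1 was the only member with such a repeat in the windows searched. With 2 bases between half-sites, which 0.174% of the promoters hold, no member had a match, and overlapping matches were counted. AGGTCA was also found in 1 of 2 promoters each of Rarg and Rxra, and no half-site was found in those of Aldh1a2, Cyp26b1 and Meioc.

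Levels were first set between genes, per kilobase of exon. In WT Spg, Stra8 stood highest at 95.9 ± 25.8 CPM per kilobase (SD, n = 3), followed by Meioc at 54.4 ± 7.68 and Aldh1a2 at 33.6 ± 8.23. Aldh1a1 (17.7 ± 11.1), Rxra (15.2 ± 2.71) and Ythdc2 (14.6 ± 1.32) were within the spread of each other, as were Rarg (11.5 ± 1.44) and Rara (10.5 ± 2.24). The degrading enzymes were lowest, with 3.46 ± 0.471 CPM per kilobase for Cyp26b1 and 1.25 ± 0.794 for Cyp26a1. With the longest transcript as the length, Aldh1a1 reached 37.0 CPM per kilobase and passed Aldh1a2 at 33.6. In WT Spc the order opened with Aldh1a2 (159 ± 40.8 CPM per kilobase, n = 4) and Meioc (91.8 ± 4.29), and Stra8 stood at 7.30 ± 7.62.

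**Figure D1:**
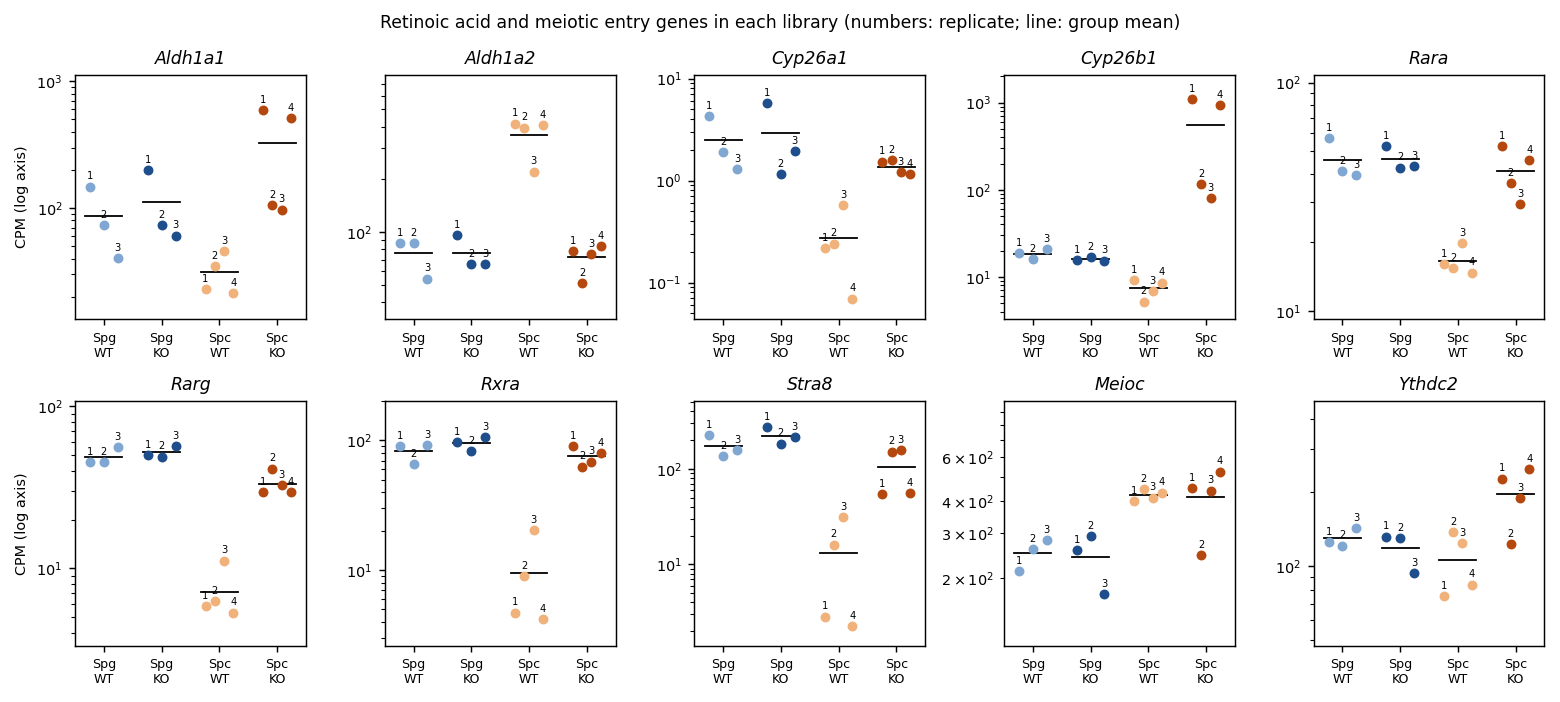
Level of each of the 10 genes in CPM on a log axis (each panel with its own range) in WT and KO spermatogonia (Spg) and spermatocytes (Spc); points are libraries with their replicate number and lines are group means. In spermatogonia the KO and WT points overlap for each gene, whereas in spermatocytes 8 of the 10 genes have KO and WT points that do not overlap, with Aldh1a2 alone among them lower in KO.

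WT spermatocytes were first compared with WT spermatogonia. Of the 10 genes 6 were called, with Aldh1a2 higher in Spc and Stra8, Rara, Rarg, Rxra and Cyp26a1 lower, where 52.5% of 24340 genes tested were called (29.2% higher and 23.3% lower). The median log2 fold change was -1.47 over the 10 genes and 0.02 over all genes tested. Groups of libraries did not overlap for 8 of the 10 genes, and for 66.0% of all genes.

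Among the enzymes that make retinoic acid, Aldh1a2 (chr9:71215789-71296243, plus strand, GRCm38) had 87.1, 86.6 and 54.6 CPM in WT Spg replicates 1 to 3 and 416, 395, 221 and 405 CPM in WT Spc replicates 1 to 4. Each Spc library lay above each Spg library, with Spc replicate 3 the lowest of its group. The log2 fold change was 2.24 (SE 0.28, adjusted p 2.5e-05). Aldh1a1 (chr19:20492715-20643465, plus strand) had 148, 73.7 and 40.5 CPM in WT Spg and 22.9, 34.9, 46.0 and 21.2 CPM in WT Spc. Its groups overlapped and its log2 fold change of -1.48 (SE 0.65, adjusted p 0.0574) was not called. Within WT Spg its order followed that of the summed level of 8 Sertoli cell markers, which was 1126, 615 and 317 CPM in replicates 1 to 3, and the part of those cells in its level was not tested.

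Of the degrading enzymes, Cyp26a1 (chr19:37697798-37701536, plus strand) fell from 4.27, 1.89 and 1.29 CPM in WT Spg to 0.216, 0.241, 0.575 and 0.0696 CPM in WT Spc, where these values rest on 2 to 24 counts. The log2 fold change was -3.12 (SE 0.66, adjusted p 0.000917), and without Spc replicates 1 and 4 of both genotypes it was no longer called (-2.74, adjusted p 0.0197). Without WT Spc replicate 3 it was -3.77. Cyp26b1 (chr6:84571414-84593908, minus strand) had 18.8, 15.9 and 20.9 CPM in WT Spg and 9.20, 5.21, 6.83 and 8.63 CPM in WT Spc. Its groups did not overlap, but its log2 fold change of -1.31 (SE 0.66, adjusted p 0.0960) was not called in a fit that shares 1 estimate of spread with the KO libraries, and without Spc replicates 1 and 4 of both genotypes, a choice made after the data were seen, it was -1.78 (adjusted p 0.000485).

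All 3 receptor genes fell between the WT stages. Rara (chr11:98927818-98974942, plus strand), a receptor that acts in Sertoli and germ cells of the testis, had 57.0, 41.0 and 39.3 CPM in WT Spg and 16.1, 15.5, 19.9 and 14.8 CPM in WT Spc, a log2 fold change of -1.47 (SE 0.24, adjusted p 0.000135). Rarg (chr15:102234938-102257517, minus strand), the receptor of spermatogonia that respond to retinoic acid, had 45.3, 45.2 and 55.9 CPM against 5.87, 6.27, 11.2 and 5.32 CPM, a log2 fold change of -2.77 (SE 0.27, adjusted p 7.8e-06). Rxra (chr2:27676440-27762957, plus strand), a partner of both, had 90.8, 66.1 and 92.6 CPM against 4.69, 8.95, 20.4 and 4.17 CPM, a log2 fold change of -3.12 (SE 0.44, adjusted p 5.1e-05). In none of the 3 did the groups overlap, and in Spc replicate 3 was the highest library for each. Without WT Spc replicate 3 the value for Rxra was -3.79.

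Among the meiotic entry genes, Stra8 (chr6:34920163-34939344, plus strand), the transcriptional inducer of the meiotic programme, had 226, 137 and 156 CPM in WT Spg and 2.84, 16.1, 31.4 and 2.26 CPM in WT Spc. The groups did not overlap, although the Spc libraries themselves spanned 13.9-fold, with replicates 2 and 3 high. The log2 fold change was -3.71 (SE 0.74, adjusted p 0.000631), and it was -4.59 without WT Spc replicate 3 and -6.08 without WT Spc replicates 2 and 3. Meioc (chr11:102663716-102682237, plus strand) went the other way, from 213, 259 and 282 CPM to 401, 446, 414 and 433 CPM, without overlap, and its log2 fold change of 0.75 (SE 0.24, adjusted p 0.0136) was not called. Without Spc KO replicate 2, which enters only through the shared spread and scaling, it was called (0.62, adjusted p 0.00862), and DESeq2 called it too (0.76, adjusted p 0.00875). Ythdc2 had 125, 121 and 143 CPM in WT Spg and 75.5, 138, 124 and 83.8 CPM in WT Spc, with a log2 fold change of -0.30 (SE 0.26, adjusted p 0.325). Its groups overlapped, with Spc replicates 2 and 3 near the Spg libraries.

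The 6 calls between WT stages were kept in each of the 14 fits that left out 1 library. Scaling by library totals in place of TMM moved the median of all genes from 0.02 to -0.76. Relative to zero it called Cyp26b1 (-2.14, adjusted p 0.00867), Aldh1a1 (-2.24, 0.00831) and Ythdc2 (-1.08, 0.00408) as well, and turned Meioc to -0.06.

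In spermatogonia, KO against WT asked whether loss of DNMT3C alters the 10 genes ahead of meiosis. None of the 10 was called and 0 had an unadjusted p under 0.05 (7.30% of all genes did), by edgeR, which called 0.0436% of 20659 genes tested (9 genes, 0.0387% higher and 0.00484% lower). DESeq2 also called 0 of the 10, beside 2.49% of all genes and transposon subfamilies. Log2 fold changes ran from -0.25 for Cyp26b1 to 0.33 for Stra8, with adjusted p from 0.9925 to 0.9996, and the median was 0.02 both over the 10 genes and over all genes. In 0 of the 10 genes were the groups of libraries apart, as they were for 12.2% of all genes.

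Stra8 had 271, 184 and 214 CPM in KO Spg replicates 1 to 3, against 226, 137 and 156 CPM in WT. In both genotypes replicate 1 was highest, and the log2 fold change of 0.33 (SE 0.22, adjusted p 0.9925) stayed between 0.19 and 0.56 when 1 library was left out. Meioc had 258, 293 and 173 CPM in KO and Ythdc2 132, 130 and 93.4 CPM, each with replicate 3 lowest, and log2 fold changes against WT of -0.10 (SE 0.20) and -0.17 (SE 0.15).

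No receptor gene was called. Rara had 52.9, 42.5 and 43.1 CPM in KO Spg (log2 fold change -0.03, SE 0.19), Rarg 50.0, 49.0 and 56.9 CPM (0.06, SE 0.14) and Rxra 97.2, 82.8 and 106.5 CPM (0.17, SE 0.16). In each of these genes the KO range crossed the WT range. Within the same-numbered pairs KO was higher in 3 of 3 for Stra8, Rarg and Rxra, and with the replicate number as a block none of them was called (Stra8 0.35, adjusted p 0.272, Rarg 0.06, 0.925, and Rxra 0.17, 0.697). Cyp26b1 had 15.5, 17.0 and 15.4 CPM in KO (-0.25, SE 0.18).

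The widest spread was in Aldh1a1 and Cyp26a1. Aldh1a1 had 199, 73.6 and 60.7 CPM in KO Spg, with a log2 fold change of 0.30 (SE 0.55), and Cyp26a1 had 5.77, 1.16 and 1.93 CPM, with 0.20 (SE 0.66). Replicate 1 was the highest in both genotypes for both genes, as it was for the summed Sertoli cell markers (1451, 598 and 433 CPM in KO Spg), and the part of those cells was not tested. Aldh1a2 had 96.8, 66.3 and 65.7 CPM in KO (-0.04, SE 0.24).

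In spermatocytes the same comparison gave 8 of 10 calls, 7 higher and 1 lower in KO, where 58.8% of 21919 genes tested were called (28.0% higher and 30.7% lower). Higher in KO were Stra8, all 3 receptors, both degrading enzymes and Aldh1a1, and Aldh1a2 was lower. Meioc and Ythdc2 were not called. The median log2 fold change was 2.27 over the 10 genes and 0.11 over all genes tested. Groups did not overlap in 8 of the 10 genes, as in 67.4% of all genes. The comparison shares its WT Spc libraries with that between WT stages.

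**Figure D2:**
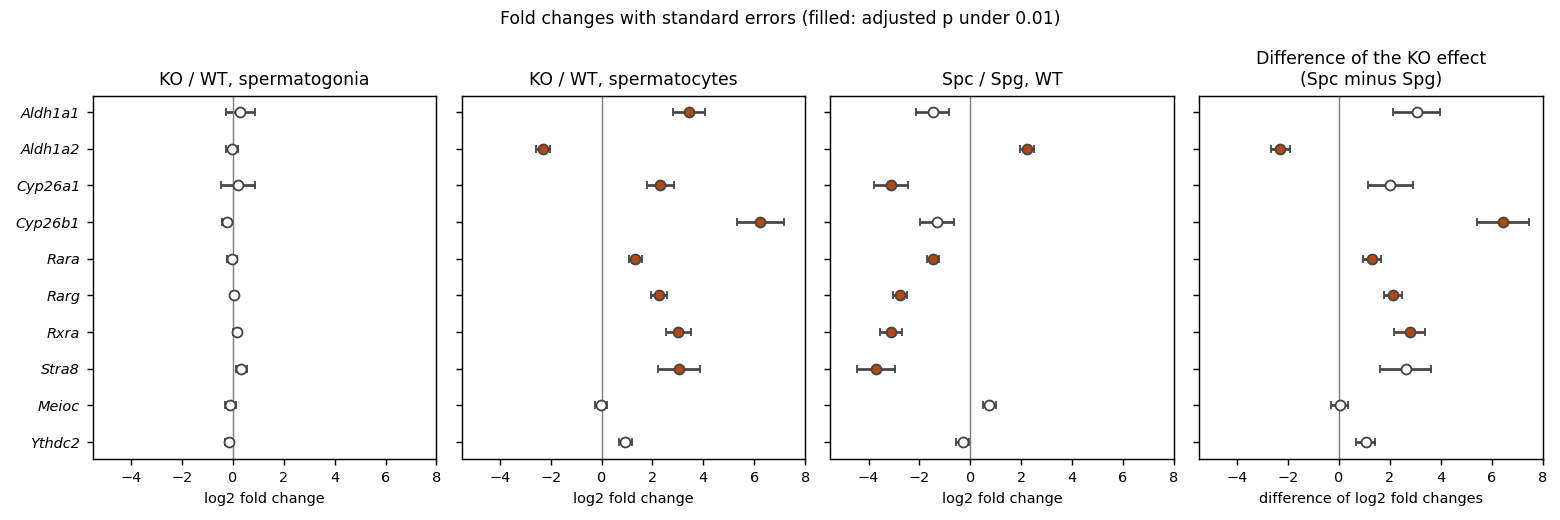
Log2 fold change (points) with its standard error (bars) of each of the 10 genes in 4 comparisons, filled where the adjusted p was under 0.01. The points of spermatogonia lie between -0.25 and 0.33, those of spermatocytes between -2.30 and 6.24, and Aldh1a2 is the one filled point to the left of zero among the KO effects in spermatocytes.

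The pair of synthesis enzymes went in opposite directions in spermatocytes. Aldh1a2 had 78.4, 51.2, 75.3 and 83.8 CPM in KO Spc replicates 1 to 4, against 221 to 416 CPM in WT Spc. Each KO library lay below each WT library and within or next to the range of WT Spg (54.6 to 87.1 CPM). It fell by 2.30 on the log2 scale, with SE 0.27 and an adjusted p of 6.7e-05, and kept its call in all 18 alternatives, between -2.48 and -1.57. Aldh1a1 had 595, 105, 97.5 and 516 CPM in KO Spc, against 21.2 to 46.0 CPM in WT. No KO library came as low as the highest WT library, with replicates 1 and 4 well above 2 and 3. The log2 fold change was 3.42 (SE 0.63, adjusted p 0.000878), and without replicates 1 and 4 of both genotypes it was 1.35 (adjusted p 0.0108), which is not called.

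Cyp26b1, which degrades retinoic acid and shields germ cells from it in the fetal testis, gave the largest change of the 10. It had 1107, 116, 79.8 and 932 CPM in KO Spc, against 5.21 to 9.20 CPM in WT Spc and 15.9 to 20.9 CPM in WT Spg. Each KO library was thus above each WT library of either stage, and replicates 1 and 4 stood apart from 2 and 3. The ratio of group means was 74.8 and the log2 fold change 6.24 (SE 0.92, adjusted p 0.000241). The call was kept in all 18 alternatives, and without replicates 1 and 4 of both genotypes, a choice made after seeing the data, the log2 fold change was 4.05 (SE 0.39, adjusted p 0.000260). Cyp26a1, which clears retinoic acid and is itself induced by it, had 1.54, 1.59, 1.20 and 1.16 CPM in KO Spc (57 to 89 counts), against 0.0696 to 0.575 CPM in WT (2 to 24 counts). The KO libraries were even and none reached down to WT. Its log2 fold change was 2.30 (SE 0.53, adjusted p 0.00322), with calls lost without WT replicate 1 (2.18, adjusted p 0.0134), without WT replicate 2 (2.21, 0.0109), without replicates 1 and 4 of both genotypes (1.79, 0.0806) and with these replicates summed (2.15, 0.0156). Without WT replicate 3 it was 2.96 (adjusted p 0.000755).

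Somatic cell marker sums are set beside these enzymes, and their part in the differences was not tested. In KO Spc replicates 1 to 4, the summed level of 6 Leydig cell markers was 356, 57.3, 64.9 and 290 CPM, that of 8 Sertoli cell markers 1124, 421, 311 and 1043 CPM, and that of 6 peritubular cell markers 3027, 4229, 249 and 2599 CPM. WT Spc had 14.1 to 30.4, 137 to 525 and 29.7 to 43.0 CPM of these lists. The summed level of 6 macrophage markers was 66.6, 129, 24.8 and 62.4 CPM in KO Spc and 4.45 to 6.64 CPM in WT Spc. Every Leydig and Sertoli marker was above 3 counts in all 8 Spc libraries. Replicates 1 and 4 were the highest KO libraries for Leydig and Sertoli markers, as for Cyp26b1 and Aldh1a1, whereas replicate 2 was highest for peritubular markers. Cyp26b1 stood at 15.4 to 20.9 CPM in all 6 Spg libraries, in which the Sertoli marker sum was 317 to 1451 CPM and the Leydig marker sum 3.79 to 9.67 CPM. In KO Spc replicate 3 Cyp26b1 was 79.8 CPM. Its sums were 311 CPM (Sertoli, within the WT Spc range), and 249 (peritubular), 64.9 (Leydig) and 24.8 CPM (macrophage), each above the WT Spc range.

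**Figure D3:**
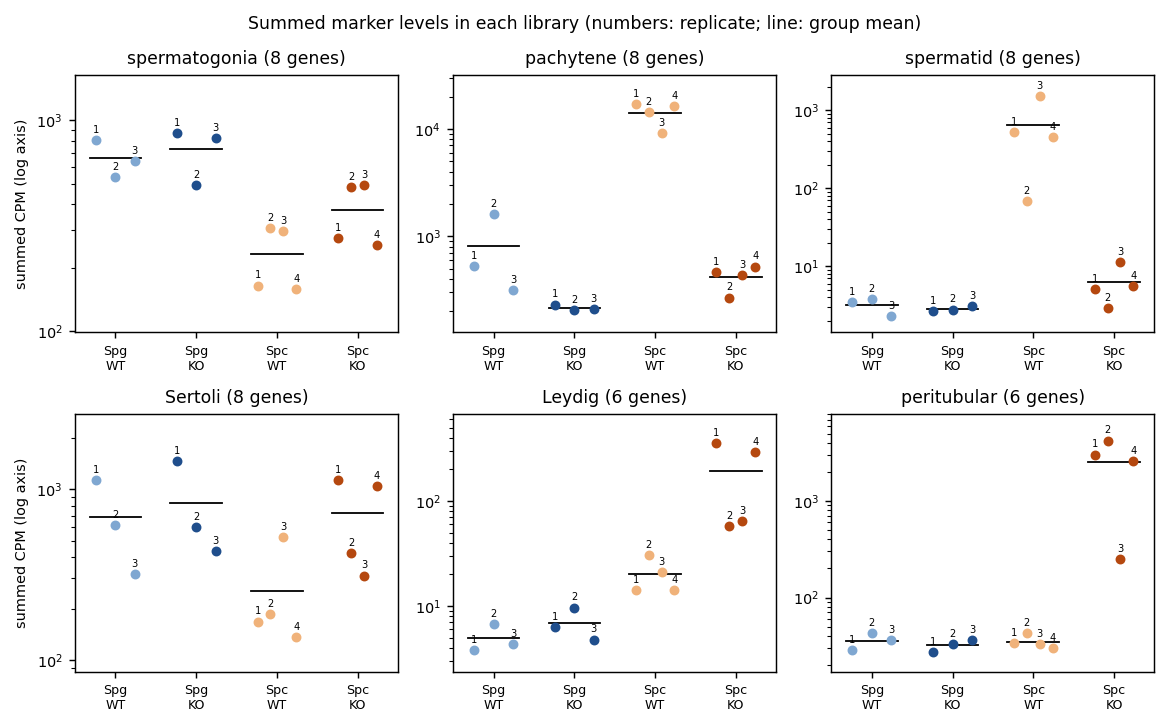
Summed CPM (log axis) of marker genes of germ cell stages (top) and somatic testis cells (bottom) in each library; points carry the replicate number and lines are group means. Pachytene markers run from 9185 to 16880 CPM in WT Spc and from 267 to 521 CPM in KO Spc, and KO Spc replicates 1 and 4 are highest in Leydig markers, with 356 and 290 CPM.

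The receptor genes were higher in KO Spc than in WT Spc. Rara had 52.9, 36.3, 29.4 and 45.6 CPM in KO, against 14.8 to 19.9 CPM in WT Spc and 39.3 to 57.0 CPM in WT Spg. The KO and WT groups did not overlap, and the log2 fold change of 1.33 (SE 0.26, adjusted p 0.00114) became 0.92 (adjusted p 0.0858) without replicates 1 and 4 of both genotypes and 1.21 (adjusted p 0.0169) with these replicates summed, so that both ended the call. Rarg had 29.6, 41.2, 32.7 and 29.4 CPM in KO, against 5.32 to 11.2 CPM in WT Spc and 45.2 to 55.9 CPM in WT Spg. Each KO Spc library lay between these ranges, replicate 2 was highest and its log2 fold change was 2.24 (SE 0.31, adjusted p 0.000170). Rxra had 89.9, 62.9, 68.6 and 80.0 CPM in KO, against 4.17 to 20.4 CPM in WT Spc, of which the highest was replicate 3, and 66.1 to 92.6 CPM in WT Spg. Its log2 fold change was 3.02 (SE 0.48, adjusted p 0.000390), and it was 3.69 without WT replicate 3 and 2.19 without replicates 1 and 4 of both genotypes. Rarg and Rxra kept their calls in all 18 alternatives. Rara and Rxra were highest in KO replicates 1 and 4, as the Sertoli and Leydig marker sums were, and the spermatogonial marker sum was 256 to 493 CPM in KO Spc and 158 to 308 CPM in WT Spc. The part of these markers in the receptor levels was not tested. Rara holds the small nuclear RNA gene Gm22061 on the same strand, and how reads there were split is uncertain.

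Stra8 was higher in KO Spc, with 54.03, 152, 158 and 55.7 CPM, against 2.26 to 31.4 CPM in WT Spc and 137 to 226 CPM in WT Spg. In both genotypes replicates 2 and 3 were the high libraries, and the lowest KO library lay above the highest WT library. The ratio of group means was 7.98 and the log2 fold change 3.05 (SE 0.81, adjusted p 0.00695). Blocking on replicate number kept the call (3.62, SE 0.43, adjusted p 0.000873), although whether these numbers pair the Spc libraries was not settled. The call was lost without KO replicate 2 (2.83, adjusted p 0.0190) or 3 (2.77, 0.0160) and without WT replicate 1 (2.68, 0.0142), 2 (3.13, 0.0186) or 4 (2.67, 0.0115) and with replicates 1 and 4 summed (2.92, 0.0116), and the value reached 3.92 without WT replicate 3. Without replicates 1 and 4 of both genotypes it was 2.73 (adjusted p 0.00175), and without WT replicates 2 and 3 it was 5.39 (adjusted p 0.000422), both chosen after the data were seen. The summed level of 8 spermatogonial markers ran the same way, with 275, 480, 493 and 256 CPM in KO and 164, 308, 297 and 158 CPM in WT replicates 1 to 4, and its part in the Stra8 level was not tested.

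Meioc and Ythdc2, whose products act as partners, did not pass. Meioc had 451, 246, 441 and 524 CPM in KO Spc and 401, 446, 414 and 433 CPM in WT. The WT libraries lay inside the KO range, and the log2 fold change was -0.00 (SE 0.24, adjusted p 0.988). Ythdc2 had 228, 123, 190 and 249 CPM in KO and 75.5, 138, 124 and 83.8 CPM in WT, where KO replicate 2 fell among the WT libraries. Its log2 fold change of 0.94 (SE 0.27, adjusted p 0.0102) just missed the threshold, which it passed without KO replicate 2 (1.12, adjusted p 0.00317), without WT replicates 2 and 3 (1.34, 0.00527) and under DESeq2 (0.88, 0.00573). It was 0.29 (adjusted p 0.508) without replicates 1 and 4 of both genotypes and 0.74 (0.0818) with these replicates summed. Library totals moved the median of all genes to 0.79 and gave 1.57 for Ythdc2 (adjusted p 0.00147) and 0.67 for Meioc (adjusted p 0.0178), a change of its sign.

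An interaction term in the fit of 14 libraries asked whether the KO effect depended on the stage. It was called for 5 of the 10 genes, 4 more increased and 1 more decreased in spermatocytes, where 25.7% of 24340 genes were called (11.1% and 14.6%). The median was 2.07 over the 10 genes and 0.19 over all genes (0.90 under library totals). The difference of log2 fold changes was 6.44 for Cyp26b1 (SE 1.02, adjusted p 0.000495), 2.78 for Rxra (SE 0.60, 0.00299), 2.12 for Rarg (SE 0.37, 0.000838), 1.30 for Rara (SE 0.34, 0.00771) and -2.32 for Aldh1a2 (SE 0.38, 0.000545). Cyp26b1 and Rarg kept this call in all 25 alternatives. Rara lost it in 12 of 25, with adjusted p up to 0.0488, among them without KO Spg replicate 2 or 3, WT Spg replicate 1, KO Spc replicate 1 or 4 and WT Spc replicate 1, 2 or 4, and with the replicate number as a block (1.26, 0.0156). Rxra lost it without replicate 1 of both Spg groups (2.82, 0.0164) and without Spc replicates 1 and 4 of both genotypes (2.11, 0.0101), and Aldh1a2 in the latter alone (-2.13, 0.0105). Without WT Spc replicate 3 the difference for Rxra was 3.45.

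For the remaining 5 genes the difference was not called. Stra8 had 2.62 (SE 1.01, adjusted p 0.0467), which passed without WT Spc replicate 3 (3.51, 0.00559), without WT Spc replicates 2 and 3 (4.99, 8.2e-05), without Spc replicates 1 and 4 of both genotypes (2.49, 0.00671) and with the replicate number as a block (3.20, 0.00275). Aldh1a1 had 3.05 (SE 0.94, adjusted p 0.0180), which passed without KO Spg replicate 1 (3.86, 0.00998), without KO Spc replicate 2 (3.44, 0.00858) or 3 (3.45, 0.00730), under DESeq2 (3.05, 0.00384) and under library totals (3.66, 0.00839), and was 1.13 (0.321) without Spc replicates 1 and 4 of both genotypes and 2.50 (0.0633) with them summed. Ythdc2 had 1.04 (SE 0.37, adjusted p 0.0349), which passed without KO Spc replicate 2 (1.31, 0.00547), without WT Spc replicates 2 and 3 (1.44, 0.00457) and under library totals (1.71, 0.00533), and was 0.55 (0.231) without Spc replicates 1 and 4 of both genotypes and 0.79 (0.110) with them summed. Cyp26a1 had 2.02 (SE 0.89, adjusted p 0.0781), which ran from 1.47 without WT Spg replicate 1 to 3.03 without KO Spg replicate 1, uncalled in each of the 25 alternatives, and Meioc 0.03 (SE 0.34, adjusted p 0.951).

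The other genes of the pathway were 54 genes of retinoid metabolism, its receptors and cofactors, and meiotic entry, in 6 lists. In KO against WT spermatogonia 0 of the 52 tested were called by edgeR, 6 had an unadjusted p under 0.05 (as did 7.30% of all genes), and DESeq2 called 1, Lrat, beside 2.49% of all genes and transposon subfamilies. In spermatocytes 30 of 50 were called, 20 higher and 10 lower in KO (24 and 6 under library totals), a share of 60% beside the 58.8% of all genes. Without Spc replicates 1 and 4 of both genotypes 12 of 51 were called, 8 higher and 4 lower, a share of 23.5% beside the 23.2% of all genes and transposon subfamilies called in that fit. With the replicate number as a block 36 of 50 were called, 26 of them higher (72% beside 50.9%). Without WT Spc replicates 2 and 3, a choice made after seeing the data, it was 37 of 51, 27 of them higher (72.5% beside 57.7%). Between WT stages 34 of 52 were called, 11 higher and 23 lower in Spc (6 and 33 under library totals), beside 52.5% of all genes (29.2% higher and 23.3% lower). The interaction was called for 13 of 52, 9 more increased and 4 more decreased in spermatocytes, a share of 25% beside the 25.7% of all genes. Under library totals 14 were called, all 14 more increased, and Rdh11 (-1.35, adjusted p 0.0396), Dgat1 (-0.81, 0.0379), Stag3 (-0.77, 0.0394) and L3mbtl2 (-0.43, 0.205) lost their calls.

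**Figure D4:**
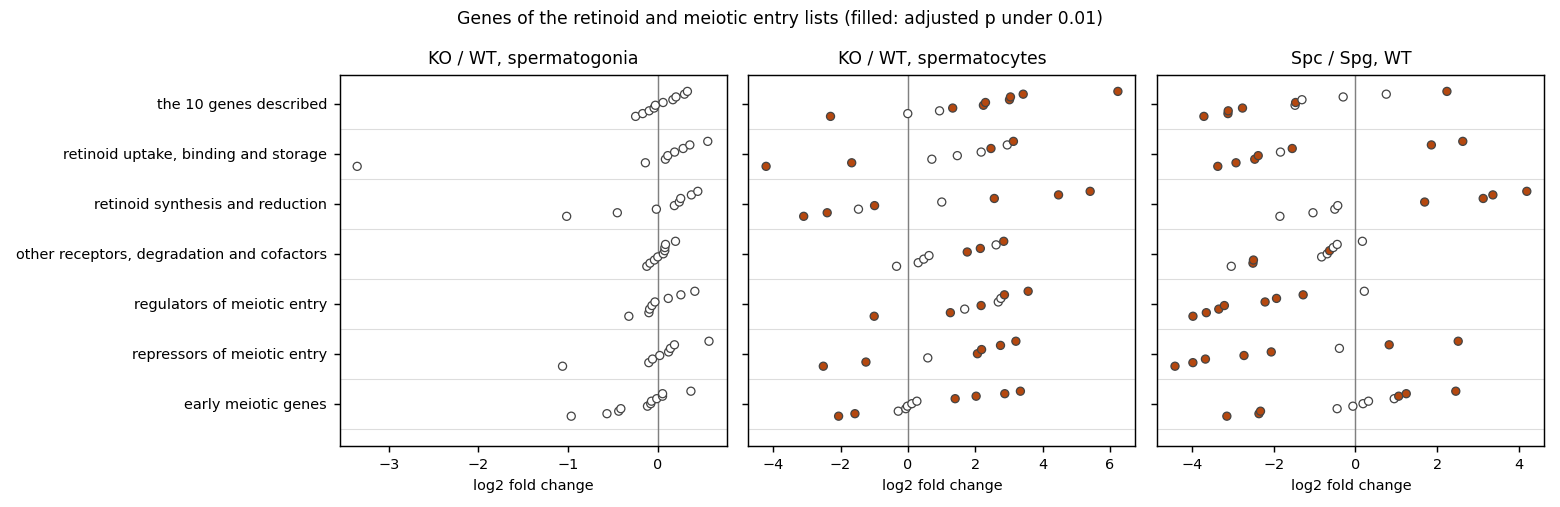
Log2 fold changes of the 10 genes and of 6 further lists in 3 comparisons, 1 point per gene tested, filled where the adjusted p was under 0.01. No point is filled in spermatogonia, where Lrat lies at -3.35, and filled points fall on both sides of zero in spermatocytes, 20 to the right and 10 to the left over the 6 further lists.

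Among genes of retinoid uptake and storage, 4 of 8 were called in KO against WT Spc. Fabp5, which can carry retinoic acid, had a log2 fold change of 2.47 (SE 0.47, adjusted p 0.00113). Lrat, which makes the storage esters of retinol, had 55, 27, 13 and 65 counts in KO and 403, 534, 768 and 375 in WT Spc, without overlap. It fell by 4.21 on the log2 scale, with SE 0.55 and an adjusted p of 0.000122. Dgat1, an enzyme that also esterifies retinol, fell by 1.67 (SE 0.22, adjusted p 0.000133). Lrat kept its call without replicates 1 and 4 of both genotypes, whereas Fabp5 (1.56, adjusted p 0.06995) and Dgat1 (-1.34, 0.0128) lost theirs, and Fabp5 also with these replicates summed (2.18, 0.0114).

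Of 8 genes of retinoid synthesis and reduction, 6 were called, 3 in each direction. Higher in KO Spc were the retinol dehydrogenase Adh1 (5.41, SE 0.75, adjusted p 0.000170), the retinaldehyde dehydrogenase Aldh1a3 (4.47, SE 0.74, adjusted p 0.000457) and the retinal reductase Dhrs3 (2.57, SE 0.54, adjusted p 0.00196). Lower were Rdh11 (-3.10, SE 0.40, adjusted p 0.000118), which fell from 655 to 76.2 CPM, and Rdh14 (-0.99, adjusted p 0.00361) and Dhrs4 (-2.40, adjusted p 0.00569). The calls of Rdh14 and Dhrs4 each rested on several single libraries: they were lost without WT replicate 1 (adjusted p 0.0124 and 0.0163), WT replicate 4 (0.0115 and 0.0154), KO replicate 1 (0.0110 and 0.0108) or KO replicate 3 (0.0119 and 0.0154), and for Dhrs4 also without KO replicate 2 (0.0186) or 4 (0.0109). Of 8 other receptor, degradation and cofactor genes, 3 were called and all 3 were higher, among them the corepressor Nrip1 (2.85, SE 0.47, adjusted p 0.000459) and the coactivator Ncoa1 (1.76, SE 0.31, adjusted p 0.000681). Removing replicates 1 and 4 of both genotypes ended the calls of Aldh1a3 (2.435, adjusted p 0.0135), Dhrs3 (2.38, 0.0316), Rdh14 (-1.05, 0.0559), Dhrs4 (-1.465, 0.0737), Nrip1 (1.72, 0.0386) and Ncoa1 (1.31, 0.0130), but not those of Adh1 and Rdh11. Summing these replicates ended the calls of Dhrs3 (2.51, 0.01215), Rdh14 (-1.01, 0.0302) and Dhrs4 (-2.22, 0.0278), library totals those of Rdh14 (-0.29, 0.291) and Dhrs4 (-1.60, 0.0230), and leaving out WT replicates 2 and 3 that of Dhrs3 (2.23, 0.0200).

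Of 8 regulators of meiotic entry, 5 were called. Gm4969, the symbol here for Meiosin, whose product is the partner of STRA8, had 133, 166.5, 122 and 137 CPM in KO Spc and 3.49, 15.97, 26.4 and 2.71 CPM in WT. The KO libraries lay together and above WT, with a log2 fold change of 3.57 (SE 0.66, adjusted p 0.000888). Xrn1, an RNA exonuclease that binds YTHDC2, rose by 1.26 (SE 0.22, adjusted p 0.000709), and Dazl, an RNA-binding factor that germ cells need for competence to enter meiosis, rose by 2.17 (SE 0.49, adjusted p 0.00266) with its call lost without WT replicate 2 (2.07, adjusted p 0.0108), with replicates 1 and 4 summed (1.92, 0.0134) and without them in both genotypes (1.46, 0.0564). Rbm46, another RNA-binding partner in this pathway, fell by 1.00 (SE 0.19, adjusted p 0.00119), with its call lost under library totals (-0.31, 0.270), with replicates 1 and 4 summed (-0.95, 0.0148) and without them (-0.85, 0.0599). Xrn1 lost its call without them as well (1.06, 0.0414), and Gm4969 did not.

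Of 7 repressors of meiotic entry tested, 6 were called, 4 higher and 2 lower. Mga and E2f6, DNA-binding parts of a Polycomb complex that silences meiotic genes, rose by 2.06 (SE 0.32, adjusted p 0.000305) and 2.19 (SE 0.50, adjusted p 0.00305), whereas its members Pcgf6 and L3mbtl2 fell by 2.51 (SE 0.24, adjusted p 2.1e-05) and 1.25 (SE 0.22, adjusted p 0.000650). Of 11 early meiotic genes, 6 were called. Prdm9, which marks recombination sites, rose by 3.34 (SE 0.62, adjusted p 0.000934), the single-strand binding factor Meiob by 2.03 (SE 0.41, adjusted p 0.00158) and the recombinase Dmc1 by 2.88 (SE 0.61, adjusted p 0.00206). Spo11, which makes meiotic DNA breaks, fell by 2.06 (SE 0.24, adjusted p 6.9e-05) and the cohesin subunit Stag3 by 1.57 (SE 0.25, adjusted p 0.000339). Pcgf6, Prdm9 and Spo11 kept their calls without replicates 1 and 4 of both genotypes. Mga (1.595, adjusted p 0.0152), E2f6 (1.81, 0.01055), L3mbtl2 (-0.90, 0.0587), Meiob (1.32, 0.0772), Dmc1 (2.11, 0.0167) and Stag3 (-1.21, 0.04735) lost theirs. With these replicates summed E2f6 (2.04, 0.01085) and Meiob (1.80, 0.0129) were not called, nor was L3mbtl2 under library totals (-0.50, 0.0440).

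The genes whose pattern was most like that of Stra8 over the 14 libraries were ranked among 16896 genes by the root mean square difference of log2 CPM after centring each gene on its own mean. The nearest were Dusp9 (0.19), Pramef12 (0.22), Cdca7 (0.25), Nlrp4c (0.26) and Mcam (0.27). Dusp9, for example, had means of 66.6 CPM in WT Spg, 77.1 in KO Spg, 4.88 in WT Spc and 35.1 in KO Spc, and like Stra8 it was low in WT Spc and intermediate in KO Spc (Stra8: 173, 223, 13.2 and 105 CPM). The nearest of the other members was Rxra (0.81, rank 567).

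For Meioc the nearest genes were Tank (0.16), Rbm26 (0.17), Tasor (0.17), Zwilch (0.17) and Polh (0.18). Tank had means of 25.2 CPM in WT Spg, 23.7 in KO Spg, 37.9 in WT Spc and 43.4 in KO Spc, and Meioc had 251, 241, 424 and 416 CPM. Ythdc2 was the nearest of the other members (0.51, rank 1902). These distances describe the same 14 libraries, which share their scaling, and carry no test.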

How the data were processed

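RNA of 14 libraries (3 KO and 3 WT of Spg, 4 KO and 4 WT of Spc) was analysed from raw counts per gene and transposon subfamily, which the authors deposited as 1 table per stage. The authors trimmed reads with cutadapt 4.0, aligned them to GRCm38 with STAR 2.7.3a, with at most 100 alignments allowed for a read, and counted them over GENCODE genes and transposons on the reverse strand with TEtranscripts in its multi mode, so that reads of near-identical copies are shared out among them. The tables also hold fold changes and p-values from their DESeq2 1.44.0, which were not used, and tables of single transposon copies hold none of these genes and were not used. The sources state that a Spg library of each genotype was set aside; it is not analysed here. The Spg column numbered 4 belongs to the sample titled replicate 3, and 0 columns were left unmapped.

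Genes were tested in edgeR 4.0.16 (R 4.3.3; filterByExpr, TMM, glmQLFit and glmQLFTest), within each stage for KO against WT, and over features present in both tables and all 14 libraries in 4 groups for the WT stages and the interaction. Standard errors were taken as the size of the log2 fold change over the square root of F. DESeq2 1.42.0 and the other alternatives are described in the closing section, and the edgeR steps were tested on simulated data. Values were summarised and plotted with Python 3.11.15, NumPy 2.4.6, pandas 2.3.3, SciPy 1.17.1 and matplotlib 3.10.9. Gene positions and exon lengths came from GENCODE M21 (31007 of 31111 identifiers matched). Likeness used log2 of CPM plus 0.5 in genes with a mean of at least 1 CPM. Total counts per library ran from 40555726 to 53323651, and Poisson intervals cover counting error only.

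The members and lists were chosen with earlier results of these data known. All 10 members are named in every comparison, and of the other lists the called genes among the 3 with the smallest p in each direction. Some genes under this rule are not reported here. Same-numbered KO and WT libraries in Spg had correlations of deviations from group means of 0.727, 0.148 and 0.301 over 16918 genes. Other pairs ran from -0.573 to 0.295, the latter between KO replicate 2 and WT replicate 3. Pairing by number was therefore not settled, and the numbers served only as a block in an alternative fit. The block changed 0 calls among the members in Spg.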

Additional observations from a re-analysis of the deposited data

Results flagged for a closer look

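In WT Spc, Aldh1a2 had 1 library far from the rest: replicate 3, at 221 CPM against 395 to 416 CPM in replicates 1, 2 and 4. Its gap to the nearest library was 0.918 of the whole range on the log2 scale. It was the 1 such case among 20 groups of 4 libraries examined, and chance gives about 1 in 20. The same library had the lowest summed level of pachytene markers of its group (9185 CPM against 14280 to 16880) and the highest of spermatid markers (1512 CPM against 69.1 to 522) and Sertoli cell markers (525 CPM against 137 to 185), and their part in its Aldh1a2 level was not tested.

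For 5 genes the KO effect differed between Spc and Spg by the interaction test of edgeR, which called 25.7% of all genes. The difference of log2 fold changes was 6.44 for Cyp26b1 (adjusted p 0.000495), 2.78 for Rxra (0.00299), 2.12 for Rarg (0.000838), 1.30 for Rara (0.00771) and -2.32 for Aldh1a2 (0.000545). Rara lost this call in 12 of 25 alternatives. Stage goes with age and sort, which cannot be told apart.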

How the results depend on the processing

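Calls by edgeR moved with the libraries kept, the threshold, the tool and the block, and the cause was not tested. In Spg, 0 members were called under all 15 alternatives, and DESeq2 called 1 gene of the further lists, where the share of all genes and transposon subfamilies called ran from 0.00459% (without replicate 1 of both groups) to 2.49% (DESeq2). That share is given in parentheses with the counts that follow. In Spc, where that share was 57.4%, 5 members were called with replicates 1 and 4 summed (38.2%) and 5 without them in both genotypes (12 of the further lists, 23.2%), against 6 to 8 with 1 library left out (45.6% to 60.5%). For the interaction, with 5 members, 13 of the further lists and 24.9% of all called, 8 members and 30 of the further lists were called at an adjusted p under 0.05 (44.8%), and 3 members without Spc replicates 1 and 4 of both genotypes (8.35%). Without replicate 1 of both Spg groups it called 3 members and 2 of the further lists (6.9%). Of these lists it called 25 under DESeq2 (39.5%), 6 with replicates 1 and 4 summed (14.3%), 29 without WT Spc replicates 2 and 3 (38.3%), and 5 to 23 with 1 library left out (14.6% to 36.4%). These 3 removals were chosen after the data were seen.

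With the replicate number as a block, the interaction called 23 of 52 genes of the further lists (44.2%, beside 23.9% of all), and KO against WT in Spc called 7 members and 50.9% of all, where Aldh1a1 lost its call (3.02, adjusted p 0.0134). In Spc the correlations of same-numbered libraries were 0.0763, 0.228, -0.0377 and 0.134, and those of other pairs ran from -0.198 to 0.137. Whether the numbers pair the Spc libraries was not settled.

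Among the 10 members, signs turned only in values that were not called. In Spg, without replicate 1 of both groups, Rara was 0.051 and Cyp26a1 -0.086. With 1 library left out, Spg values ran from -0.14 to 0.15 (Rara), -0.0089 to 0.15 (Rarg), -0.70 to 0.83 (Cyp26a1), -0.40 to 0.89 (Aldh1a1), -0.24 to 0.10 (Aldh1a2) and -0.26 to 0.10 (Meioc). Meioc in Spc was 0.67 under library totals, 0.0025 with TMM over genes alone, 0.055 at a mean count of at least 50, 0.025 without WT replicates 2 and 3, and -0.14 to 0.19 with 1 library left out. Between WT stages Meioc was -0.058 under library totals. Its interaction was -0.11 with replicates 1 and 4 summed, -0.11 without them, and -0.066 to 0.31 with 1 library left out. Cyp26a1 could not be tested in Spc at a mean count of at least 50. Of 40 levels per length, 24 moved by less than 1 SD with the longest transcript as length. With 2 to 24 counts, Cyp26a1 in WT Spc is limited by depth.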

Other observations

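Lrat, which esterifies retinol for storage, had 14, 14 and 14 counts in KO Spg and 95, 248 and 39 counts in WT Spg. The groups did not overlap, with WT replicate 2 highest. The log2 fold change was -3.35 (SE 0.72), not called by edgeR (adjusted p 0.129) and called by DESeq2 (-3.37, adjusted p 0.000106). Without WT replicate 2 it was -2.26 (edgeR adjusted p 0.186), and without WT replicate 3 it was -3.80 (0.0191). The summed level of 8 pachytene markers was 203 to 230 CPM in KO Spg and 312 to 1614 CPM in WT Spg, and its part in the Lrat level was not tested. Lrat was named because it was the 1 call of DESeq2 among the further genes.

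Rdh11, a retinal reductase, had 18.97, 18.93 and 17.01 CPM in KO Spg and 20.9 to 59.4 CPM in WT Spg. The groups did not overlap, and its log2 fold change of -1.02 (SE 0.38) was not called by edgeR (adjusted p 0.534). Without WT replicate 2 it was -0.39 (adjusted p 0.9997). That library also had the highest pachytene marker sum of the Spg libraries, 1614 CPM, and the part of these markers in the Rdh11 level was not tested. Between WT stages its log2 fold change was 4.20 (SE 0.47, adjusted p 1.256e-05).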
